A study of Mus musculus with 10 samples.

Results

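The 10 genes described here are Dyrk1a, Rcan1, Rcan2, Rcan3, Ppp3ca, Ppp3cb, Ppp3r1, Nfatc1, Nfatc3 and Nfatc4, which code for a protein kinase, regulators and subunits of the phosphatase calcineurin, and the NFAT transcription factors. They were taken by symbol from the 43629 genes of the count table, through the Ensembl gene IDs of the GRCm38 annotation, and all 10 passed the filter on low counts that left 17237 tested genes. Dyrk1a and Rcan1 lie in the duplicated segment of chromosome 16, from Lipi to Zbtb21, which holds 250 genes of the table, 114 of them tested. The other 8 genes lie on other chromosomes and are present in the usual 2 copies.

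Gene expression was measured by RNA sequencing of the whole hippocampus of 5 Dp1Tyb and 5 WT mice, 1 library per mouse, all given by the labels as 18 weeks old and of a strain whose name joins C57BL/6J and 129P2. Dp1Tyb mice carry the duplication Dp(16Lipi-Zbtb21)1TybEmcf, so that each gene of the segment has 3 copies, and the WT mice were their male littermates according to the methods of the study. No treatment is given for either group. The duplication raises the copy number of the whole segment at once, so an effect of Dyrk1a or Rcan1 alone cannot be told apart from that of the other duplicated genes. Total counts ranged from 18227684 to 43692270 per library.

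Calcineurin is a phosphatase that is switched on by calcium and calmodulin. It is made of a catalytic A subunit and a regulatory B subunit, and it removes phosphates from the NFATc proteins, which then enter the nucleus and act on transcription. DYRK1A works in the opposite direction, since it phosphorylates NFATc proteins and so primes them for further phosphorylation and export, and proteins of the RCAN family bind calcineurin and can inhibit it. In neurons, calcineurin is abundant and takes part in synaptic plasticity and in the recycling of synaptic vesicles. Because DYRK1A and RCAN1 are both coded on human chromosome 21, their joint excess has been discussed as a brake on NFAT signalling in Down syndrome.

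Rcan1 is itself a known target of NFAT. RefSeq gives it 2 starts on the minus strand of GRCm38, and the downstream one drives the short, calcium-responsive form. The 250 bases before each start are shown because only the downstream window holds the NFAT core motif GGAAA, which was searched on both strands (TTTCC on the other strand) and is in capitals. The upstream window spans chr16:92466170-92466419 and the downstream one chr16:92400079-92400328, and neither overlaps an annotated exon of Rcan1.
Rcan1, upstream start: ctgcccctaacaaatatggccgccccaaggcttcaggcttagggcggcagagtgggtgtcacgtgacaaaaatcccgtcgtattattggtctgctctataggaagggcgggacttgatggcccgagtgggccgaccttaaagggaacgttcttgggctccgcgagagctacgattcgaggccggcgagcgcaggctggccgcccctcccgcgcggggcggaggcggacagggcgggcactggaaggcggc
Rcan1, downstream start: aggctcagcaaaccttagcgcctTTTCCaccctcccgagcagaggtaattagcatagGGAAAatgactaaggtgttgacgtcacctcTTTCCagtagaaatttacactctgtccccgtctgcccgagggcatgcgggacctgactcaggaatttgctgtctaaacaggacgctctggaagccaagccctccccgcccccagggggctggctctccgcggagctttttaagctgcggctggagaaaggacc
The downstream window has 3 matches and the upstream window 0. Of 32851 windows of the same length before the starts of all genes, 55.6% hold at least 1 match and 6.39% at least 3. Of the 10 genes, 8 had an entry, with 14 windows in all, and the windows of Ppp3cb and Nfatc4 also held 3 matches each. The deposited counts are for whole genes, so the values that follow add up the transcripts from both starts of Rcan1.

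Dyrk1a and Rcan1 were both about 1.5-fold higher in Dp1Tyb hippocampus, and none of the other 8 genes was called. Of the 10 genes, 2 had an adjusted p under 0.05 in edgeR, both higher, where 1.11% of all tested genes were called, 0.87% higher and 0.238% lower. In the segment itself 59.6% of the tested genes were called higher, so a call is the usual result for a duplicated gene. Of the 8 genes outside it, 0 were called in edgeR and 0 in DESeq2, where the share of all genes outside the segment called in edgeR was 0.718% and the share of all genes called in DESeq2 was 3.2%. At an unadjusted p under 0.05 in edgeR, 4 of the 8 were higher (Rcan3, Ppp3cb, Ppp3r1 and Nfatc4) and none was lower, where 7.52% of all genes outside the segment were higher and 6.45% lower.

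**Figure D1:**
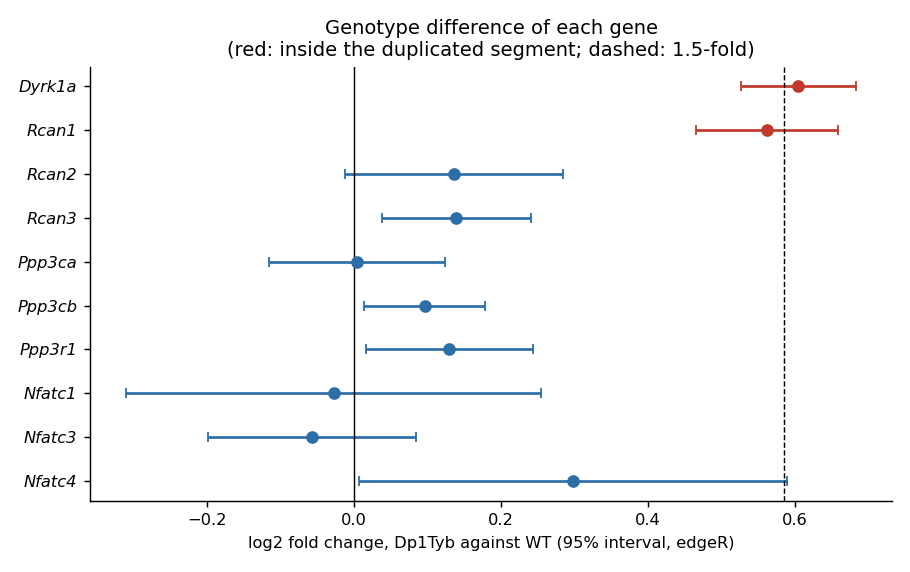
Log2 fold change of each gene, Dp1Tyb against WT, with its 95% interval from the edgeR fit (n = 5 per genotype); red marks the duplicated genes, and the dashed line is a 1.5-fold change. The intervals of Dyrk1a and Rcan1 lie around the dashed line, and those of 7 of the other 8 genes end below it.

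Dyrk1a (ENSMUSG00000022897) is a protein-coding gene on the plus strand, chr16:94570010-94695517. Its expression, in CPM (counts per 1000000 counts of the library, after scaling of the libraries), was 82.8, 78.8, 80.1, 85.9 and 83.9 in WT replicates 1 to 5 and 120.4, 125.1, 124.2, 130.8 and 125.4 in Dp1Tyb replicates 1 to 5. All Dp1Tyb libraries lay far above all WT libraries, and the spread within each genotype was small. The genotypes were apart in this way for 3.68% of all tested genes, and for 2.56% with Dp1Tyb the higher. WT mice averaged 82.3 ± 2.86 CPM and Dp1Tyb mice 125.2 ± 3.73 CPM (SD, n = 5 each), a log2 fold change of 0.60 ± 0.036 SE (in edgeR, adjusted p = 7.47e-07). As a fold change this is 1.52, with a 95% interval of 1.44 to 1.61, which holds the 1.5 that 3 copies against 2 would give. The annotated span overlaps Gm15971 on the same strand.

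Rcan1 (ENSMUSG00000022951) lies on the minus strand, chr16:92391953-92470867, and overlaps Gm46555 on the other strand. It had 39.0, 39.9, 39.6, 39.4 and 39.3 CPM in the WT libraries and 61.6, 60.0, 56.5, 53.2 and 59.6 CPM in the Dp1Tyb libraries. The Dp1Tyb values again lay above all WT values, with replicate 4 the lowest of them. WT mice averaged 39.4 ± 0.354 CPM and Dp1Tyb mice 58.2 ± 3.34 CPM (SD, n = 5 each), a log2 fold change of 0.56 ± 0.045 SE (in edgeR, adjusted p = 1.02e-05) and a fold change of 1.48 (95% interval 1.38 to 1.58). The coefficient of variation of 0.898% among the WT libraries was below the 3.19% that counting error alone gives at these counts.

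**Figure D2:**
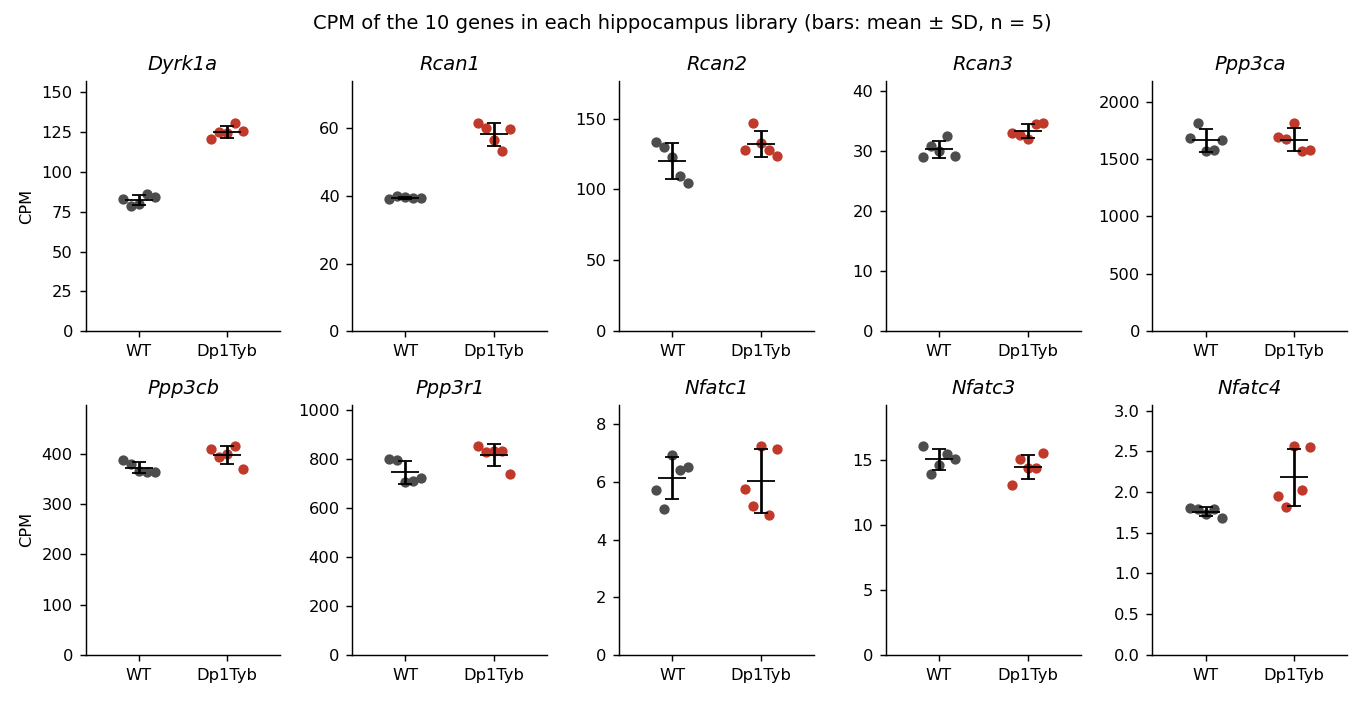
CPM of the 10 genes in each library, from 0 on each axis, with 1 point per mouse and the mean ± SD (n = 5) per genotype. The genotypes are fully apart for Dyrk1a, Rcan1 and Nfatc4, and they overlap for the other 7 genes.

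The increases in Dyrk1a and Rcan1 were compared with each other and with the rest of the segment. The log2 ratio of Rcan1 to Dyrk1a was lower in Dp1Tyb, with a difference of −0.046 ± 0.061 SE (p = 0.532 in a two-sided exact permutation test, and 0.698 after adjustment for the 3 ratios tested), within the spread between mice, and without Dp1Tyb replicate 4 it was 0.0020. Dyrk1a relative to the median of the other tested genes of the segment was higher in Dp1Tyb by 0.066 ± 0.027 SE (exact permutation p = 0.0397, adjusted p = 0.119), which did not pass after adjustment. Over its alternatives, the adjusted p ranged from 0.0476, without Dp1Tyb replicate 3, to 0.603, with only the called genes of the segment as the reference, where the difference was 0.014. The called genes were picked by this same genotype difference, all higher, with a median log2 fold change of 0.59. As a reference they therefore lower such differences by construction. The full reference also holds genes that were not called, such as Kcne2 and Clic6 at log2 fold changes of −0.43 and −0.40. Such genes lower its median and so raise such differences. Rcan1 relative to the segment differed by 0.020 ± 0.048 SE (exact permutation p = 0.698, adjusted p = 0.698), and this small difference was −0.032 against the called genes and −0.0041 without Dp1Tyb replicate 1. With all other tested genes as the reference and all 10 libraries, neither gene was therefore shown to depart from the rest of the segment. In order of log2 fold change Dyrk1a was number 36 and Rcan1 number 49 of the 114 genes, whose median was 0.53 with quartiles of 0.34 and 0.64.

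The nearest tested genes on either side of Dyrk1a were also higher in Dp1Tyb. Vps26c (chr16:94497783-94526830), which codes for a subunit of an endosomal recycling complex, had a log2 fold change of 0.57 ± 0.039 SE (in edgeR, adjusted p = 2.38e-06), and Kcnj6 (chr16:94748636-94997701), a potassium channel subunit, one of 0.53 ± 0.092 SE (in edgeR, adjusted p = 0.0117). Of the nearest tested genes beside Rcan1, 1 was called. Smim11 (chr16:92301286-92313041), which codes for a small membrane protein and overlaps the antisense gene 1700048M11Rik, had a log2 fold change of 0.48 ± 0.085 SE (in edgeR, adjusted p = 0.0125), with means of 7.68 CPM in WT and 10.7 CPM in Dp1Tyb. Clic6 (chr16:92485736-92541243), an intracellular chloride channel of the choroid plexus, had −0.40 ± 0.87 SE (in edgeR, adjusted p = 0.865), at an average of 68.3 ± 40.5 CPM in the WT mice and 52.5 ± 56.0 CPM in the Dp1Tyb mice (SD, n = 5). Clic6 was one of the choroid plexus markers, whose level differed widely among these libraries, and with that level in the fit its value was 0.40 (edgeR, adjusted p = 0.102, and up to 0.979 over its alternatives). That level was the mean log2 CPM of 9 markers including Clic6 itself, so Clic6 was adjusted in part for its own level. The value of 0.40 therefore cannot show the genotype difference of Clic6. Without single libraries the value of Clic6 lay between −0.99 and −0.073.

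**Figure D3:**
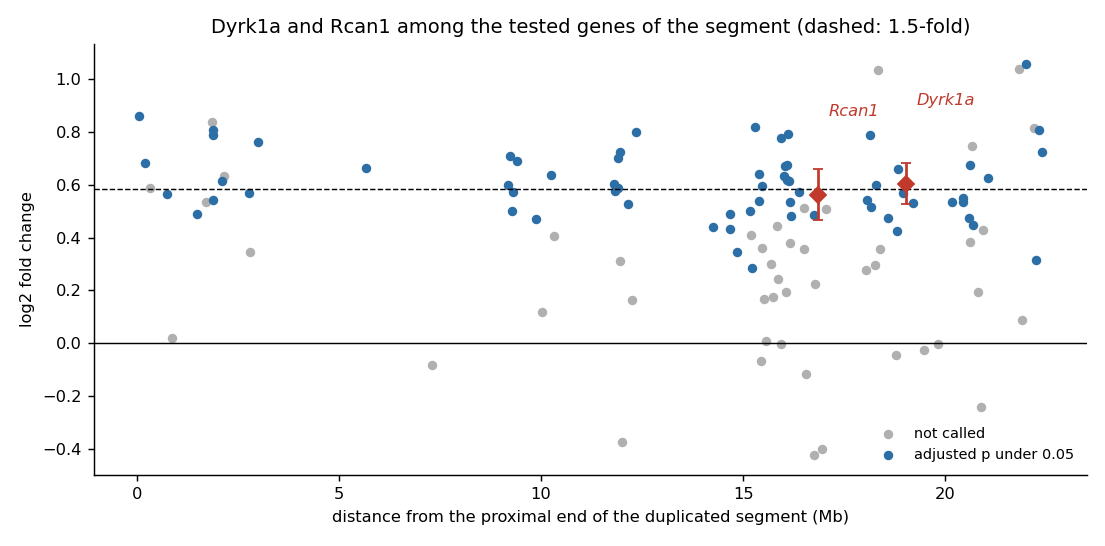
Log2 fold change, Dp1Tyb against WT, of the 114 tested genes of the duplicated segment, by distance in Mb from its proximal end; blue marks an adjusted p under 0.05 in edgeR, grey the other genes, and the dashed line 1.5-fold. Rcan1 and Dyrk1a (red diamonds, with 95% intervals) lie at 16.9 and 19.0 Mb, in the middle of the range of the called genes.

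Rcan2 and Rcan3, the relatives of Rcan1 that also bind calcineurin and are not duplicated, had small differences that did not pass the test. Rcan2 (ENSMUSG00000039601, chr17:43801351-44039516) had 133.6, 129.6, 122.6, 109.4 and 104.7 CPM in WT and 128.0, 147.1, 132.7, 127.9 and 123.6 CPM in Dp1Tyb, so the genotypes overlapped. Its log2 fold change was 0.14 ± 0.069 SE (in edgeR, adjusted p = 0.388). Rcan3 (ENSMUSG00000059713, chr4:135412308-135433853) had 29.0, 30.7, 30.0, 32.5 and 29.1 CPM in WT and 32.9, 32.7, 32.0, 34.5 and 34.7 CPM in Dp1Tyb. Only the highest WT library reached into the Dp1Tyb range, and the log2 fold change of 0.14 ± 0.047 SE had an unadjusted p of 0.0112 and an adjusted p of 0.206 in edgeR. The 95% interval of the fold change was 0.992 to 1.22 for Rcan2 and 1.03 to 1.18 for Rcan3, which both end below the interval of Rcan1.

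To compare levels between genes, CPM was divided by the length of the merged exons of each gene, which gives RPKM. On this scale Rcan2 was the main Rcan gene of the hippocampus, at 27.4 ± 2.87 RPKM in WT, followed by Rcan1 at 12.8 ± 0.115 and Rcan3 at 5.93 ± 0.279 RPKM (SD, n = 5). In Dp1Tyb the levels were 30.2 ± 2.08, 18.9 ± 1.08 and 6.53 ± 0.228 RPKM in the same order. The share of Rcan1 in the summed RPKM of the 3 genes was 25.9% to 30.0% in the WT libraries and 32.4% to 35.9% in the Dp1Tyb libraries, with means of 27.8% ± 1.69 and 34.0% ± 1.63 (SD, n = 5). Rcan1 thus remained below Rcan2 in Dp1Tyb hippocampus.

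The subunits of calcineurin were the most abundant of the 10 genes. Ppp3ca (ENSMUSG00000028161, chr3:136670124-136937727), the main catalytic subunit of neurons, had 1682, 1816, 1573, 1579 and 1670.4 CPM in WT and 1697, 1677, 1817, 1570.3 and 1580.3 CPM in Dp1Tyb. These ranges lay on top of each other, with a log2 fold change of 0.0037 ± 0.055 SE (in edgeR, adjusted p = 0.984) whose 95% interval was −0.12 to 0.12, and whose sign changed when single libraries were left out. Ppp3cb (ENSMUSG00000021816, chr14:20499364-20546573), the other catalytic subunit found in brain, had 388.1, 379.0, 364.9, 364.0 and 364.0 CPM in WT and 409.4, 394.2, 399.1, 414.4 and 370.5 CPM in Dp1Tyb. Of the Dp1Tyb libraries, 4 lay above all WT libraries and replicate 5 did not, and the log2 fold change was 0.096 ± 0.038 SE (unadjusted p = 0.0265, adjusted p = 0.285 in edgeR).

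Ppp3r1 (ENSMUSG00000033953, chr11:17159263-17200375) codes for the regulatory B subunit, the calcium-binding partner of both catalytic subunits, and overlaps Wdr92 on the same strand. It had 801.7, 796.9, 707.0, 711.6 and 722.3 CPM in WT and 853.0, 828.4, 832.5, 835.8 and 741.3 CPM in Dp1Tyb. The same 4 Dp1Tyb libraries as for Ppp3cb were above all WT libraries, and replicate 5 was again low. The log2 fold change was 0.13 ± 0.053 SE (unadjusted p = 0.0282, adjusted p = 0.289 in edgeR).

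Per length, Ppp3r1 was at 231.7 ± 14.6 RPKM and Ppp3ca at 166.7 ± 9.91 RPKM in WT (SD, n = 5), above 99.5% and 99.2% of the tested genes, and Ppp3cb was at 42.2 ± 1.25 RPKM. Ppp3cc, the catalytic subunit best known from testis, was at 5.75 ± 0.325 RPKM, and Ppp3r2, the testis form of the B subunit, had 2 to 11 counts per library and was not tested. The 3 Rcan genes together stood at 22.1% ± 1.24 of the summed RPKM of Ppp3ca and Ppp3cb in WT (20.3% to 23.5%) and at 26.2% ± 1.44 in Dp1Tyb (24.2% to 28.0%; SD, n = 5). For Rcan1 alone this ratio was 6.13% ± 0.296 in WT and 8.90% ± 0.640 in Dp1Tyb. The libraries of the genotypes did not overlap for either ratio. Both ratios hold Rcan1 itself and are given as a description of transcript levels, with no test.

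The NFATc genes were the least abundant of the group. Nfatc3 (ENSMUSG00000031902, chr8:106058840-106130537, overlapped by Esrp2 on the other strand) had 16.0, 13.9, 14.6, 15.5 and 15.1 CPM in WT and 13.1, 15.0, 14.4, 14.4 and 15.6 CPM in Dp1Tyb. Its log2 fold change of −0.058 ± 0.066 SE did not pass the test (edgeR, adjusted p = 0.717). It was −0.022 without Dp1Tyb replicate 1 and −0.011 with the choroid plexus level as a covariate. Nfatc1 (ENSMUSG00000033016, chr18:80606205-80713071), best known from heart valves, osteoclasts and lymphocytes, had 5.72, 5.08, 6.94, 6.42 and 6.53 CPM in WT and 5.75, 5.18, 7.24, 4.85 and 7.16 CPM in Dp1Tyb. The genotypes overlapped throughout, with a log2 fold change of −0.028 ± 0.13 SE (in edgeR, adjusted p = 0.943) whose sign was not stable.

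Nfatc4 (ENSMUSG00000023411, chr14:55823144-55833943), an NFAT factor with known roles in neurons, rested on 32 to 85 counts per library. It had 1.80, 1.79, 1.74, 1.79 and 1.68 CPM in WT and 1.95, 1.82, 2.56, 2.03 and 2.56 CPM in Dp1Tyb. All Dp1Tyb libraries lay above all WT libraries, but only just for replicate 2, and replicates 3 and 5 carried most of the difference. The genotypes were apart with Dp1Tyb the higher for 2.56% of all tested genes. Replicates 3 and 5 also had the highest choroid plexus marker sums of the Dp1Tyb libraries, at 3922 and 3765 CPM. WT replicates 3, 4 and 5 had higher sums, of 4223 to 5448 CPM, with Nfatc4 at 1.74, 1.79 and 1.68 CPM. With the choroid plexus level as a covariate, the log2 fold change of Nfatc4 was 0.37 (edgeR, adjusted p = 0.365). The part of the choroid plexus in the values of single libraries was not tested. The log2 fold change of 0.30 ± 0.14 SE had an unadjusted p of 0.0461 and an adjusted p of 0.34 in edgeR, and its 95% interval, from 0.0059 to 0.59, was the only one among the 8 genes that reached a 1.5-fold change. The WT libraries varied by 2.93%, less than the 15.1% that counting error gives at this depth.

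On the RPKM scale the order of the 10 genes was Ppp3r1, Ppp3ca, Ppp3cb, Rcan2, Rcan1, Dyrk1a, Rcan3, Nfatc3, Nfatc1 and Nfatc4 in both genotypes, and within each genotype the libraries of neighbours in this order did not overlap. Nfatc3 was at 1.28 ± 0.0684 RPKM, Nfatc1 at 0.822 ± 0.0988 and Nfatc4 at 0.303 ± 0.00887 RPKM in WT (SD, n = 5). Dyrk1a stood at 4.15 ± 0.169 times the summed RPKM of these 3 NFATc genes in WT and at 6.32 ± 0.657 times in Dp1Tyb, with a range of 3.92 to 4.39 and of 5.58 to 7.13. This ratio holds the duplicated Dyrk1a itself, leaves out Nfatc2, and is a description with no test. Nfatc2, which was not in the group of 10, was at 1.65 ± 0.162 RPKM in WT and did not pass the test (log2 fold change −0.085 ± 0.085 SE; adjusted p = 0.675 in edgeR). Nfat5, which answers to osmotic stress and not to calcineurin, was at 9.02 ± 0.422 RPKM.

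Markers of the choroid plexus, a tissue that borders the hippocampus, varied widely between libraries. The summed CPM of its 9 markers was 2861, 429.9, 5448, 4223 and 5090.2 in WT replicates 1 to 5 and 38.6, 1458, 3922, 46.3 and 3765 in Dp1Tyb replicates 1 to 5. On average most of this sum came from 1 gene, Ttr, with means of 3247 CPM in WT and 1637 CPM in Dp1Tyb. All 9 markers were tested, none was at 0 in any library, and none was called or had an unadjusted p under 0.05 in edgeR, with a median log2 fold change of −0.94. Across the libraries of both genotypes, Nfatc1 was at 6.42 to 7.24 CPM in the 5 libraries with the highest sums (3765 to 5448 CPM) and at 4.85 to 5.75 CPM in the 5 others, whereas Ppp3r1 was at 707.0 to 832.5 CPM in the former and at 796.9 to 853.0 CPM in the latter. With the choroid plexus level as a covariate, a fit chosen after these values were seen, the log2 fold change was 0.12 for Nfatc1, 0.083 for Ppp3r1, 0.061 for Ppp3cb and 0.37 for Nfatc4 (edgeR, adjusted p = 0.732, 0.546, 0.598 and 0.365). In the same fit it was 0.61 for Dyrk1a and 0.57 for Rcan1 (edgeR, adjusted p = 1.43e-06 and 1.33e-05). The covariate was the mean log2 CPM of the 9 markers, not their summed CPM. In such bulk tissue, fewer cells of a type and less RNA per cell cannot be told apart.

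**Figure D4:**
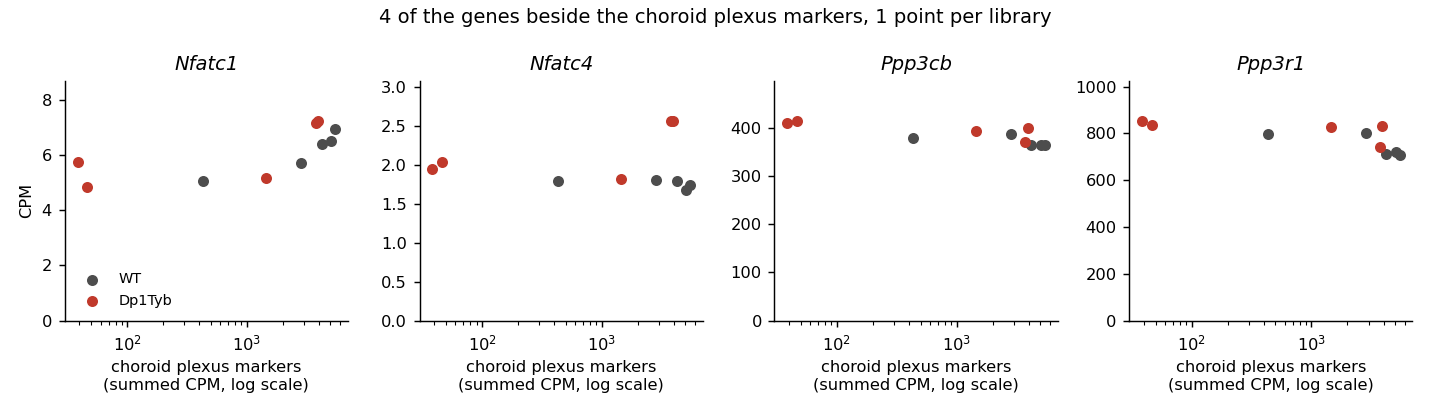
CPM of Nfatc1, Nfatc4, Ppp3cb and Ppp3r1 (from 0) against the summed CPM of 9 choroid plexus markers (log scale), 1 point per library, WT in grey and Dp1Tyb in red. On average most of the sum is Ttr. Nfatc1 is higher in the libraries rich in these markers in both genotypes, while Nfatc4 is above 2.5 CPM in Dp1Tyb replicates 3 and 5 alone.

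All 8 hippocampal markers were detected in every library. Their summed CPM was 4571 to 5725 in WT and 4998 to 5195 in Dp1Tyb, most of it from Camk2a of excitatory neurons, which averaged 4253 CPM in WT, while the lowest, Spink8, averaged 16.5 CPM. None was called in edgeR. At an unadjusted p under 0.05, 1 was higher and 2 lower, where 7.52% of all genes outside the segment were higher and 6.45% lower. The lower ones were Lct, at a log2 fold change of −0.40 ± 0.10 SE, and Prox1 of the dentate gyrus, at −0.18 ± 0.057 SE (in edgeR, adjusted p = 0.0882 and 0.184), and the higher one was Neurod6 of excitatory neurons, at 0.15 ± 0.048 SE (in edgeR, adjusted p = 0.176). The markers of blood (5 genes), endothelial and mural cells (8), microglia (6) and the thalamus (5) were also without a call in edgeR, and at an unadjusted p under 0.05 there were 1, 3, 1 and 1 lower and 0 higher, where 6.45% of all genes outside the segment were lower. The 3 of the 8 endothelial and mural markers were Cldn5, Flt1 and Pdgfrb, with log2 fold changes of −0.20, −0.13 and −0.17. The summed CPM of these lists was, in the same order, 43.0 to 93.2, 193.1 to 218.8, 237.9 to 280.9 and 70.3 to 81.1 in WT, and 33.4 to 67.1, 181.5 to 197.4, 197.1 to 256.5 and 67.4 to 82.6 in Dp1Tyb. Their part in the differences of the 10 genes was not tested.

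The wider pathway was followed in 8 lists that together held 109 genes, of which 99 were tested. A single gene was called, 1 higher and 0 lower, where 0.718% of all genes outside the segment were called in edgeR. At an unadjusted p under 0.05, 13 were higher and 8 lower in edgeR, or 21.2% of those tested. Outside the segment the share was 14%, with 7.52% higher and 6.45% lower, which is the background for each list below.

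Of 12 genes in the list of kinases related to DYRK1A and its adaptor Dcaf7, 11 were tested and none was called, with 2 lower at an unadjusted p under 0.05 and a median log2 fold change of −0.038. Dyrk1b, the closest relative of Dyrk1a and not duplicated, averaged 25.5 ± 3.14 CPM in the WT mice and 20.2 ± 1.98 CPM in the Dp1Tyb mice (SD, n = 5), for a log2 fold change of −0.34 ± 0.090 SE (in edgeR, adjusted p = 0.0948). It passed the test without WT replicate 1 (edgeR, adjusted p = 0.0465), with a replicate block (edgeR, adjusted p = 0.0408) and in DESeq2 (adjusted p = 0.0117), and over all its alternatives the adjusted p ranged from 0.0117 to 0.230, the highest with the choroid plexus level as a covariate, where the value was −0.25. Clk2, a kinase of splicing factors, had a log2 fold change of −0.14 ± 0.059 SE (in edgeR, adjusted p = 0.305). On the RPKM scale Dyrk1a and Dyrk1b were close in WT, at 9.98 ± 0.347 and 9.48 ± 1.16, and apart in Dp1Tyb, at 15.2 ± 0.453 and 7.48 ± 0.736 (SD, n = 5). Dyrk2 and Dyrk3 were at 3.09 and 3.81 RPKM in WT, Dyrk4 had 0 to 13 counts per library, and the share of Dyrk1a in the summed RPKM of the family went from 37.9% ± 2.20 to 50.8% ± 1.44.

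None of the 4 tested genes among the other calcineurin subunits and calmodulins was called, and all 4 had values above 0, with a median log2 fold change of 0.069. The smallest p was that of Calm3, a calmodulin gene, at 0.096 ± 0.043 SE (in edgeR, adjusted p = 0.332), and Ppp3cc was at 0.083 ± 0.057 SE (in edgeR, adjusted p = 0.534). Among 14 inhibitors, anchors and immunophilins of calcineurin, all tested, none was called, with a median of 0.031. At an unadjusted p under 0.05 in edgeR, 4 were higher, where 7.52% of all genes outside the segment were. The smallest p belonged to Tollip, an adaptor of endosomal signalling (log2 fold change 0.094 ± 0.035 SE; adjusted p = 0.249 in edgeR), and Chp1, which resembles the B subunit (0.080 ± 0.032 SE; adjusted p = 0.283 in edgeR).

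Of the 15 tested genes among other NFAT factors and kinases of NFAT, none was called, with a median log2 fold change of 0.0041. At an unadjusted p under 0.05 in edgeR, 4 were higher, where 7.52% of all genes outside the segment were. The JNK kinase genes Mapk9 and Mapk8 led this list at 0.097 ± 0.034 SE and 0.12 ± 0.047 SE (in edgeR, adjusted p = 0.231 and 0.283). In the calcium entry list, all 16 genes were tested and none was called, with 1 lower at an unadjusted p under 0.05 and a median of −0.043. Itpr3, an inositol trisphosphate receptor, and Orai3, a store-operated calcium channel, had −0.21 ± 0.084 SE and −0.12 ± 0.061 SE (in edgeR, adjusted p = 0.283 and 0.404).

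Among the 16 calcineurin substrates other than NFAT, the called gene was Amph, which codes for amphiphysin, a protein of synaptic vesicle endocytosis that is dephosphorylated by calcineurin. It averaged 274.7 ± 7.17 CPM in the WT mice and 303.3 ± 4.83 CPM in the Dp1Tyb mice (SD, n = 5), for a log2 fold change of 0.14 ± 0.030 SE (in edgeR, adjusted p = 0.0402). The genotypes did not overlap, which held with Dp1Tyb the higher for 2.56% of all tested genes. The call held in DESeq2 (adjusted p = 0.00115), with a replicate block (edgeR, adjusted p = 0.0392) and with at least 1 CPM in 5 samples (edgeR, adjusted p = 0.0427). It was lost with RLE size factors, without a filter and with the choroid plexus level as a covariate. Leaving out single libraries ended this call in 9 of 10 cases, with an adjusted p of up to 0.105 in edgeR, and only the fit without Dp1Tyb replicate 5 kept it. The log2 fold change itself stayed between 0.13 and 0.15 in these fits. In the whole list, 2 genes were higher and 3 lower at an unadjusted p under 0.05, and the median was −0.071. Of the 15 substrates of DYRK1A, none was called, with 1 higher and 2 lower at an unadjusted p under 0.05 and a median of −0.061. Gli1, a transcription factor of Hedgehog signalling, was at 3.37 ± 0.912 CPM in WT and 2.07 ± 0.474 CPM in Dp1Tyb (log2 fold change −0.70 ± 0.20 SE; adjusted p = 0.133 in edgeR; DESeq2, adjusted p = 0.0357). Over the other alternatives the adjusted p of Gli1 in edgeR ranged from 0.0664, with a replicate block, to 0.287, without WT replicate 4. Mapt, which codes for tau, was at 0.078 ± 0.032 SE (in edgeR, adjusted p = 0.294).

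Genes described as transcribed through NFAT gave no call either. Of 15 such genes 8 were tested, and the 7 others, mostly cytokines of lymphocytes, had at most 13 counts in any library. The median log2 fold change of the 8 was −0.027, with 4 above and 4 below 0, and 1 had an unadjusted p under 0.05. Ptgs2, the inducible cyclooxygenase, averaged 31.4 ± 3.45 CPM in the WT mice and 36.3 ± 3.05 CPM in the Dp1Tyb mice (SD, n = 5; log2 fold change 0.21 ± 0.079 SE; adjusted p = 0.262 in edgeR). Bdnf, a neurotrophin, was at 0.13 ± 0.062 SE (in edgeR, adjusted p = 0.376), with an interval from −0.0073 to 0.26. The phosphorylation and the location of NFAT proteins were not measured in these libraries.

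**Figure D5:**
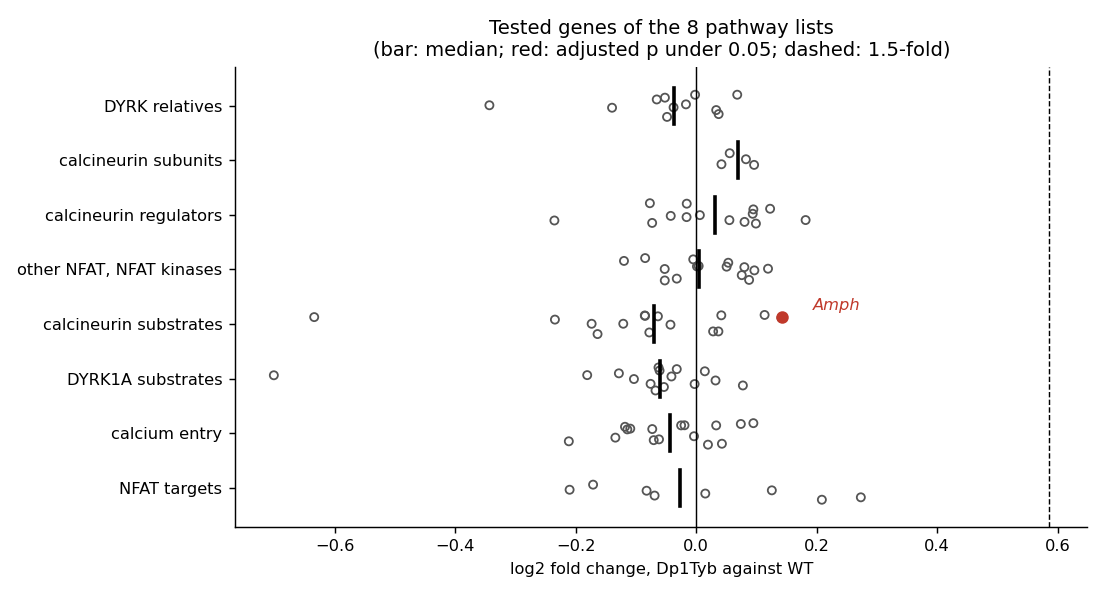
Log2 fold change, Dp1Tyb against WT, of the 99 tested genes of the 8 pathway lists, 1 point per gene, with the median of each list as a bar and 1.5-fold as a dashed line. The medians lie between −0.071 and 0.069, and the filled red point is Amph, the gene with an adjusted p under 0.05 in edgeR.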

How the data were processed

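RNA was sequenced from the whole hippocampus of 5 WT and 5 Dp1Tyb mice. The deposited counts are whole reads per gene, not normalised, for 43629 genes. The authors obtained them with htseq-count from TopHat 2.0.12 alignments to GRCm38 of TrimGalore-processed reads, so a gene with near-identical copies loses reads, because only uniquely aligned ones were kept. The strand setting and the annotation release are not given in the sources used here. The deposited normalised table and the authors' own comparison of the genotypes (fold changes and p-values) were not used.

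Symbols, positions and exon lengths came from GENCODE M21 (GRCm38), which lacked 1081 of the gene IDs, with 0.103% of the counts. Genotypes were compared with the quasi-likelihood F-test of edgeR 4.0.16 in R 4.3.3, with TMM normalisation, filterByExpr and Benjamini-Hochberg adjustment over 17237 tested genes. A gene was called at an adjusted p under 0.05. The standard error is the one that gives the test statistic. The fitting was tested on simulated data. Ratios of 2 genes, in log2 CPM with a prior count of 0.5, were compared by permuting the genotypes (an exact two-sided test of all 252 relabellings, which can give no p below 0.00794). CPM divided by merged exon length gives RPKM. Alternatives were DESeq2 1.42.0, RLE size factors, no filter, at least 1 CPM in 5 samples, leaving out each library, and a replicate block. A further fit, chosen after values were seen, had the choroid plexus level (mean log2 CPM of its 9 markers) as a covariate. The text names the 10 genes, the nearest tested genes beside Dyrk1a and Rcan1, and from each list the called genes or, without any, the 2 with the smallest p; other list and marker genes were named after their values were seen. The 10 genes and the lists were chosen with earlier results of these data known. Promoter sequences are from RefSeq (GRCm38.p6). The labels give no batch. Dixon's criterion was used for single libraries that stand apart. Counting errors cover sampling of reads only.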

Additional observations from a re-analysis of the deposited data

Results flagged for a closer look

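In 46 groups of 5 values, over the 10 genes and the ratios described above, the value farthest from the others was set against the range of its group. It stood apart in 2 groups, where chance gives about 2.3, so these form no pattern. Ppp3r1, the regulatory subunit of calcineurin, was at 741.3 CPM in Dp1Tyb replicate 5, the lowest of its genotype, against 828.4 to 853.0 CPM in the other Dp1Tyb libraries, a gap of 0.78 of the range. The summed RPKM of Nfatc1, Nfatc3 and Nfatc4 was 2.18 in WT replicate 2, against 2.44 to 2.49 in the other WT libraries, a gap of 0.867 of the range. That library had the lowest choroid plexus marker level of the WT group, at 429.9 summed CPM, whose part in this value was not tested.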

How the results depend on the processing

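Dyrk1a and Rcan1 were called under each of the 6 other settings and in each of the 10 fits without 1 library, with log2 fold changes of 0.59 to 0.62 and of 0.54 to 0.59 in the latter. The number of called genes among the 10 was 2 in all of these fits. The number over all tested genes was 191, and it was 507 with DESeq2, 139 with the choroid plexus level as a covariate, and between 105 (without either WT replicate 4 or Dp1Tyb replicate 2) and 218 without 1 library; it was 111 without Dp1Tyb replicate 3 and 127 without WT replicate 5. WT and Dp1Tyb replicates share their numbers, and the labels do not say whether a number marks a pair or a litter. Same-numbered libraries correlated at −0.076 to 0.27 in their deviations from the genotype means, and 1 of the 10 libraries correlated best with its own number. Libraries of different numbers correlated at −0.44 to 0.48, a range that holds the same-numbered values. Such few values cannot decide whether same-numbered mice were paired. With a replicate block 315 genes were called, among the 10 again 2. Small differences changed sign. Ppp3ca was −0.0035 with the choroid plexus covariate and −0.029 to 0.033 without 1 library, Nfatc1 0.12 and −0.10 to 0.039, and Clic6 0.40 with the covariate, of which Clic6 is itself a part. Rcan1 against the segment was −0.032 with called genes as the reference and −0.0041 to 0.050 without 1 library, Rcan1 against Dyrk1a −0.081 to 0.0020, and Dyrk1a against the segment 0.048 to 0.079, past the threshold without Dp1Tyb replicate 3. Amph was not called with RLE size factors (edgeR, adjusted p = 0.0518), without a filter (0.113) or with the covariate (0.16), at log2 fold changes of 0.14, 0.15 and 0.13 against 0.14. It was called in DESeq2, with a replicate block and with at least 1 CPM in 5 samples. The cause of these shifts was not tested. Depth limits Nfatc4 most, at 32 to 85 counts per library.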

Other observations

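The genes whose levels followed Dyrk1a and Rcan1 most closely from mouse to mouse were looked up after the genotype means had been removed, as a description over 10 libraries that share depth and dissection. With 17237 genes to choose from, high values of r arise in any case. For Dyrk1a the 5 genes with the highest Pearson r were Ripor2 (r = 0.936), C530008M17Rik (0.911), Pdgfra (0.885), Cebpz (0.879) and March3 (0.867). For Rcan1 they were Sult4a1 (r = 0.963), Klhdc3 (0.960), Pip4p1 (0.933), Gm4430 (0.931) and Srrd (0.930). None of the 10 was called between the genotypes. Between Dyrk1a and Rcan1 themselves r was −0.634. This value rests largely on Dp1Tyb replicates 1 and 4, which were the lowest and the highest of their genotype in Dyrk1a and the highest and the lowest in Rcan1, while Rcan1 varied by less than counting error among the WT libraries.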
